A study of Mus musculus with 16 samples.

Results

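The genes described here are a share of the nuclear genes of oxidative phosphorylation, read in mouse tibialis anterior, a hindlimb muscle of mostly fast fibres. They were chosen by symbol: every gene starting with Nduf, Uqcr, Cyc1 or Atp5, Sdha to Sdhd, and Cox4 to Cox8 that a detected array probe names by its gene number. This gave 49 genes, each read from its brightest probe, out of 2386 genes named by 2584 of the 7596 probes kept. The symbol, the detection of a probe and the gene number in its ID set the membership, and no measured change entered the rule. Of the 49, 44 are subunits, 4 are complex I assembly factors (Ndufaf2, Ndufaf3, Ndufaf4 and Ndufaf8) and 1 is the pseudogene Ndufs5-ps, whose probe may also read RNA of Ndufs5. By symbol, 24 fall under complex I, 2 under complex II, 5 under complex III, 9 under complex IV and 9 under complex V. Another 4 genes of the rule (Ndufab1, Ndufaf6, Ndufaf7 and Sdha) had a named probe that was not detected on any of the 16 arrays, with a mean intensity of 188 to 236, and are not described further. Of 116 RefSeq genes that the rule covers, 53 had a probe named by its gene number. The others were not analysed here, because no probe carried their number.

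Expression was profiled in 16 male C57BL/10 ScSn mice, 6 to 7 weeks old and wild type. Each mouse received 1 intraperitoneal injection, of formoterol at 100 µg/kg in 0.2 mL saline or of saline alone. Formoterol is an agonist of the β2-adrenergic receptor, which raises cyclic AMP in muscle fibres. The muscle was taken 1 h or 4 h later, so that 4 groups of 4 mice were formed (saline 1 h, formoterol 1 h, saline 4 h and formoterol 4 h), with 1 array per mouse. All mice, controls included, were injected, and no uninjected muscle was on the arrays.

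Oxidative phosphorylation is the last stage of fuel oxidation in the inner mitochondrial membrane. Complexes I and II take electrons from NADH and succinate, complexes III and IV pass them on to oxygen, and complexes I, III and IV pump protons whose return through complex V drives ATP synthesis. The subunits come from both nuclear and mitochondrial DNA, and a large share of the nuclear genes is known to be switched on by NRF1, GABP and the estrogen-related receptors with the PGC-1 coactivators.

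Values are log2 of the bead intensity after each array was scaled to a common median, and a difference is log2 of formoterol over saline unless another pair is named. Group means were fitted with limma over the 16 arrays, and a gene was called at a p under 0.05 after Benjamini-Hochberg adjustment over all 7596 probes. All 49 genes were detected on all 16 arrays, and their mean intensities ran from 428 to 25383 with a median of 6047, against a median of 525 over all kept probes. Intensities of different probes depend on the probe as well as on the RNA, so the order of the genes by brightness was not read.

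The array of 1 control mouse stood apart from the rest. In saline 4 h replicate 2, 575 of the kept probes (7.57%) lay more than 0.5 above their mean in the other 15 mice and 313 (4.12%) lay more than 0.5 below it, against 31 to 217 above and 42 to 122 below in the other mice. Its median intensity was the highest at 746 (392.7 to 641.9 in the others), and its signal was 3.74 times the background (2.33 to 3.26 in the others). Among the 49 genes, 10 (20.4%) lay more than 0.5 above and 2 more than 0.5 below. The arrays lay on 3 slides, by the chip numbers in the labels. Slide 1 held 3 saline and 3 formoterol mice at 4 h, slide 2 the other saline and formoterol mouse at 4 h with 2 and 2 mice at 1 h, and slide 3 the other 2 and 2 at 1 h. Only slide 2 held mice of both times, so differences between 1 h and 4 h also carry differences between slides. The main results at 4 h are given with and without saline 4 h replicate 2. Of the 8 muscle identity markers listed, 1 (Neb) was measured by a named probe, and of 11 fast fibre markers 3 (Myh1, Casq1 and Actn3), all of them detected and none called in any comparison.

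None of the 49 oxidative phosphorylation genes read here passed the threshold after formoterol at either time. At 1 h, 0 of 49 genes were called by limma, where 2.78% of all kept probes were, and 2 (14.0% of all kept probes) passed an unadjusted p under 0.05. At 4 h, 0 of 49 were called, where 15.9% of all kept probes were, and 12 passed an unadjusted p under 0.05, 2 of them higher and 10 lower, where 31.1% of all kept probes passed. That count of 0 at 4 h changed with slide as a fixed block, which called Atp5k and Ndufb4 lower (19.7% of all kept probes were called). It also changed without saline 4 h replicate 4, which called 11 genes lower (11.3% of all kept probes were called lower). Further settings that changed it are given in the closing section, among them array weights, which called genes in both directions. The mice of the 2 groups did not overlap for 2 of 49 genes at 1 h (8.44% of all kept probes) and for 0 of 49 at 4 h (19.4%). The difference between the response at 4 h and that at 1 h was called for 0 of 49 (3.52% of all probes), saline at 4 h against saline at 1 h for 0 (0.145%), and formoterol at 4 h against formoterol at 1 h for 0 (5.61%). Unadjusted, these 3 comparisons passed for 3, 8 and 1 genes, and for 13.1%, 13.8% and 16.1% of all probes.

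The precision was enough to bound most of the genes, as it was for most kept probes. At 1 h, the 95% interval of the difference stayed within 1.5-fold either way for 46 of 49 genes, and at 4 h for 40 of 49. Over all 7596 kept probes it did so for 7109 at 1 h and 6535 at 4 h. The median standard error was 0.093 on the log2 scale, with a range of 0.076 to 0.283. The median difference over the 49 genes was -0.061 at 1 h (-0.004 over all kept probes) and 0.060 at 4 h (0.018 over all kept probes). At 1 h, 40 genes were below 0 and 9 above. At 4 h, 31 were above 0 and 18 below, a split that depends on the scaling, since it was 21 above and 28 below after quantile normalization and 10 above and 39 below after scaling by the median of all probes. That last scaling moved the median of all kept probes at 4 h to -0.105. The sign of the 4 h median thus changed with the scaling, and without saline 4 h replicate 2 the median was -0.004. Within slides the median was -0.157 (slide 2) and 0.036 (slide 3) at 1 h, and 0.009 (slide 1) and 0.141 (slide 2) at 4 h.

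**Figure D1:**
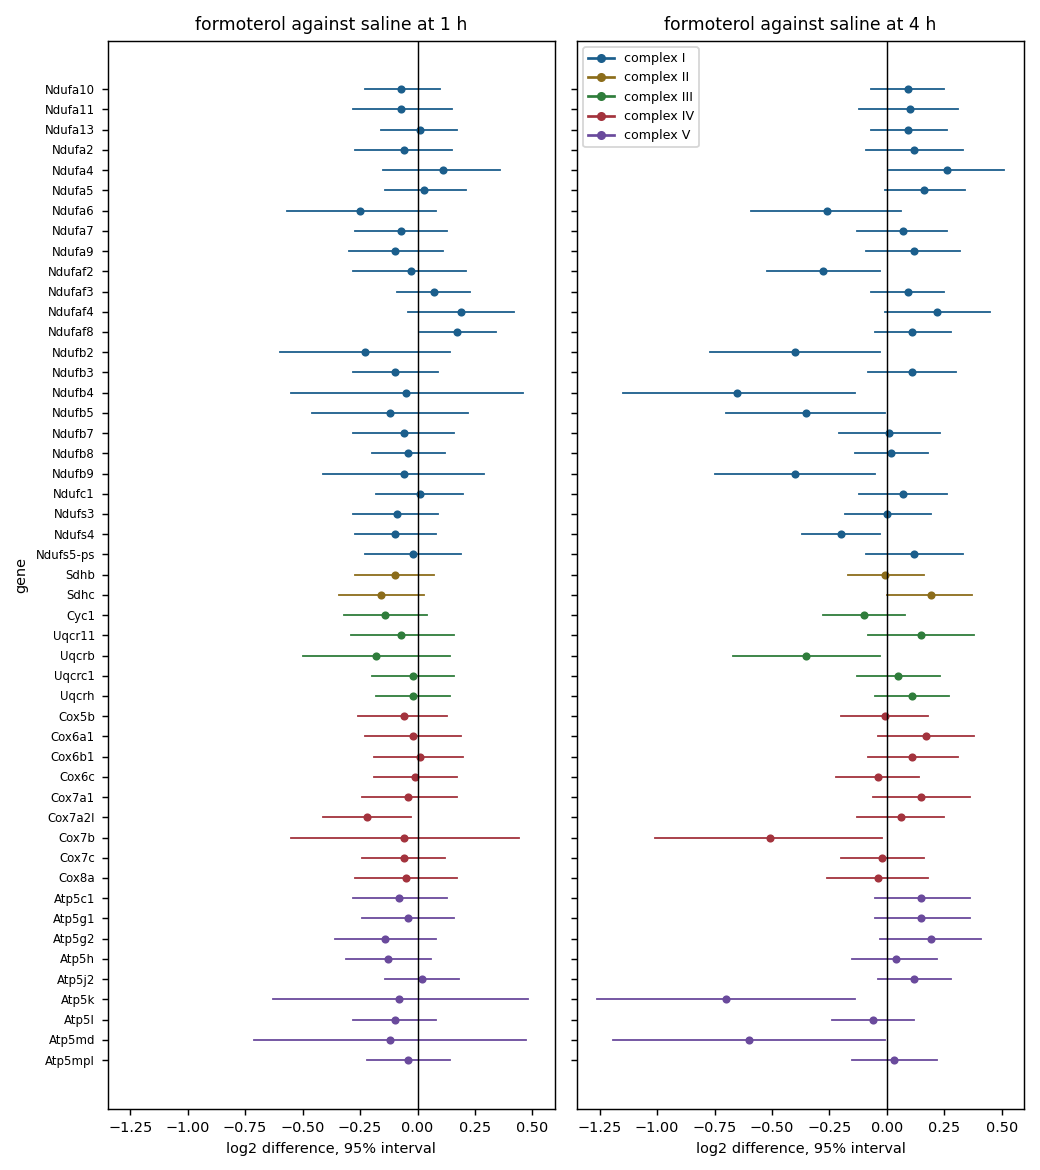
Log2 difference of formoterol against saline for each of the 49 genes at 1 h (left) and 4 h (right), with limma's 95% interval as a line and the complex as colour. At 1 h the points lie between -0.25 and 0.19. At 4 h most lie close to 0 and 9 genes with wide intervals lie between -0.26 and -0.70.

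Complex I, the NADH dehydrogenase and entry point of most electrons, was represented by 24 genes by symbol. The assembly factors, the pseudogene and Ndufa4 are counted among these 24. Their median difference was -0.056 at 1 h, with 17 below 0 and 7 above, and 0.081 at 4 h, with 17 above 0 and 7 below. The complex I gene farthest from 0 at 1 h was Ndufa6, an accessory subunit. Its values were 11.95, 11.82, 11.48 and 11.62 after saline and 11.46, 11.40, 11.65 and 11.37 after formoterol at 1 h. Both saline mice of slide 3 lay within the range of the treated mice, and the difference was -0.25 (SE 0.15, adjusted p = 0.526). It was -0.46 (adjusted p = 0.0188) within slide 2 and -0.04 within slide 3. At 4 h the farthest was Ndufb4, an accessory subunit of the membrane arm. The saline mice read 11.11, 12.40, 11.20 and 10.59 and the formoterol mice 10.87, 10.51, 10.89 and 10.44. Its highest saline mouse was more than 1 log2 unit above all others, its lowest lay among the treated mice, and the difference was -0.65 (SE 0.24, adjusted p = 0.0756). Without saline 4 h replicate 2 it was -0.29 (adjusted p = 0.189), and with slide as a fixed block the same difference was called (adjusted p = 0.0385).

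Ndufs4, an accessory subunit whose loss is known to cause an encephalopathy in mice, had the smallest p at 4 h after Ndufb4 and Atp5k. Saline mice gave 13.26, 13.54, 13.48 and 13.20 and formoterol mice 13.16, 13.04, 13.22 and 13.27. The highest treated mouse lay above 2 of the 4 controls, so the groups overlapped. The difference was -0.20 (SE 0.08, adjusted p = 0.109) from the brighter probe and -0.23 (SE 0.09, adjusted p = 0.0779) from a dimmer one, and at 1 h both probes gave -0.10. It was -0.14 (adjusted p = 0.315) without saline 4 h replicate 2, and it was called after quantile normalization (-0.32, adjusted p = 0.0023). In the mice of slide 2 alone, 1 against 1, it was 0.08. Ndufa5, another accessory subunit, had the lowest difference of the set between the 2 saline groups. It read 13.24, 13.28, 13.26 and 13.09 at 1 h and 12.84, 12.85, 13.13 and 12.90 at 4 h. Only the highest mouse at 4 h reached the lowest at 1 h, and the difference was -0.29 (SE 0.08, adjusted p = 0.178). Ndufs3, a core subunit, was also read by 2 probes. The brighter gave 12.44, 12.40, 12.75 and 12.43 after saline and 12.47, 12.42, 12.54 and 12.60 after formoterol at 4 h, and a difference of 0.00 against 0.15 from the dimmer probe, both with an SE under 0.1. Neither was called (adjusted p = 0.983 and 0.216).

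The 4 assembly factors, which help to build complex I and do not stay in it, had a median of 0.122 at 1 h and 0.102 at 4 h. They did not share a direction at 4 h, where Ndufaf2 was the farthest from 0. Its saline mice read 10.14, 10.56, 10.20 and 9.94 and its formoterol mice 9.96, 9.83, 10.07 and 9.87. The groups overlapped, saline replicate 2 was highest, and the difference was -0.28 (SE 0.12, adjusted p = 0.11), or -0.16 (adjusted p = 0.366) without that mouse, against -0.03 (SE 0.12, adjusted p = 0.951) at 1 h. Ndufaf8 was 1 of the 2 genes of the set whose groups did not overlap at 1 h. Its saline mice read 8.78, 8.69, 8.79 and 8.60 and its formoterol mice 8.94, 8.81, 8.81 and 8.97. All 4 treated mice were above all 4 controls by a small margin (8.44% of all probes did not overlap there), and the difference was 0.17 (SE 0.08, adjusted p = 0.329). The probe of Ndufaf8 was the dimmest of the 49. Ndufaf4 read 10.05, 9.90, 10.32 and 10.18 after saline and 10.37, 10.57, 10.14 and 10.14 after formoterol at 1 h. The groups overlapped, and the difference was 0.19 (SE 0.11, adjusted p = 0.46). It was 0.49 within slide 2 (adjusted p = 0.0216, 2 against 2 mice) and -0.11 within slide 3, which held the other 2 against 2 mice. At 4 h the difference of Ndufaf4 was 0.22 (SE 0.11, adjusted p = 0.172). Ndufa4, once assigned to complex I and now known to sit with complex IV, had the highest 4 h difference of the set, 0.26 (SE 0.12, adjusted p = 0.144). Its values were 13.61, 13.23, 13.91 and 13.75 after saline and 13.69, 13.91, 13.89 and 14.06 after formoterol. Saline 4 h replicate 2 was its lowest mouse, and without it the difference was 0.13 (adjusted p = 0.472). The remaining complex I genes (Ndufa2, Ndufa7, Ndufa9, Ndufa10, Ndufa11, Ndufa13, Ndufb3, Ndufb7, Ndufb8, Ndufc1, Ndufaf3 and Ndufs5-ps) differed by -0.10 to 0.07 at 1 h and by 0.01 to 0.12 at 4 h.

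Complex II, succinate dehydrogenase, ties the citric acid cycle to the chain and is encoded by nuclear genes only. The iron-sulfur subunit Sdhb gave -0.10 (SE 0.08, adjusted p = 0.675) at 1 h and -0.01 (SE 0.08, adjusted p = 0.973) at 4 h. Sdhc, a membrane anchor, was the farther from 0 at both times. At 1 h it read 12.72, 12.67, 12.78 and 12.51 after saline and 12.53, 12.36, 12.57 and 12.60 after formoterol, and at 4 h 12.50, 12.35, 12.74 and 12.43 and 12.65, 12.62, 12.65 and 12.84. Treated mice thus sat toward the low end of the controls at 1 h and toward the high end at 4 h, with overlap at both times. The differences were -0.16 (SE 0.09, adjusted p = 0.472) and 0.19 (SE 0.09, adjusted p = 0.159), and the difference between them was 0.34 (SE 0.13, adjusted p = 0.196). All 4 formoterol mice at 4 h lay above all 4 formoterol mice at 1 h (12.9% of all probes did not overlap there), by 0.18 (SE 0.09, adjusted p = 0.359). Without saline 4 h replicate 2 the 4 h difference was 0.14 (adjusted p = 0.395). Leaving out saline 4 h replicate 3, the highest control, made the 4 h difference 0.26 (adjusted p = 0.0464).

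Complex III, the cytochrome bc1 complex, was represented by 5 genes with a median of -0.066 at 1 h and 0.053 at 4 h. Uqcrb, the ubiquinol-binding subunit, was farthest from 0 at both times. It read 12.24, 12.23, 11.84 and 11.90 and 11.75, 11.85, 12.09 and 11.80 at 1 h after saline and formoterol, and 12.17, 12.87, 12.31 and 11.89 and 12.04, 11.82, 11.97 and 12.01 at 4 h. The control mice spread more widely than the treated mice at both times. At 1 h the difference was -0.43 (adjusted p = 0.0213) within slide 2 and 0.08 within slide 3. Over all mice the differences were -0.18 (SE 0.15, adjusted p = 0.693) and -0.35 (SE 0.15, adjusted p = 0.13), and the latter became -0.16 (adjusted p = 0.45) without saline 4 h replicate 2. Cyc1, the cytochrome c1 haem protein, gave -0.14 (SE 0.09) at 1 h and -0.10 (SE 0.09) at 4 h, and the core protein Uqcrc1 -0.02 (SE 0.09) and 0.05 (SE 0.09). Uqcr11, a small subunit, gave -0.07 (SE 0.11) and 0.15 (SE 0.11). Uqcrh, the hinge protein, separated by time in the saline mice. It read 14.19, 14.08, 14.16 and 14.08 at 1 h and 13.81, 13.79, 13.97 and 13.82 at 4 h. All 4 mice at 4 h were below all 4 at 1 h (5.12% of all probes did not overlap there), with a difference of -0.28 (SE 0.08, adjusted p = 0.15). Time of day and time after injection cannot be told apart in this comparison, and slide differed with time for most of these mice. With slide as a fixed block, 0 of all kept probes were called in it.

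Complex IV, cytochrome c oxidase, was represented by 9 genes with a median of -0.048 at 1 h and -0.014 at 4 h. Cox7a2l, known as a factor that joins complexes III and IV into supercomplexes, had the smallest p of the set at 1 h. Saline mice read 10.51, 10.53, 10.34 and 10.28 and formoterol mice 10.22, 10.10, 10.23 and 10.24. All 4 treated mice were below all 4 controls (8.44% of all probes did not overlap there), and the difference was -0.22 (SE 0.09, adjusted p = 0.27). It was -0.36 (adjusted p = 0.0445) within slide 2 and -0.07 within slide 3. At 4 h the saline mice read 10.47, 10.19, 10.57 and 10.44 and the formoterol mice 10.41, 10.40, 10.41 and 10.68. These overlapped, with a difference of 0.06 (SE 0.09, adjusted p = 0.681). Between the formoterol groups, all 4 mice at 4 h were above all 4 at 1 h (12.9% of all probes did not overlap there), by 0.28 (SE 0.09, adjusted p = 0.082). Cox7a2l was called in that comparison without saline 4 h replicate 2 (adjusted p = 0.0394), with the same log2 difference. The difference between the 2 responses to formoterol was 0.28 (SE 0.13, adjusted p = 0.344).

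**Figure D2:**
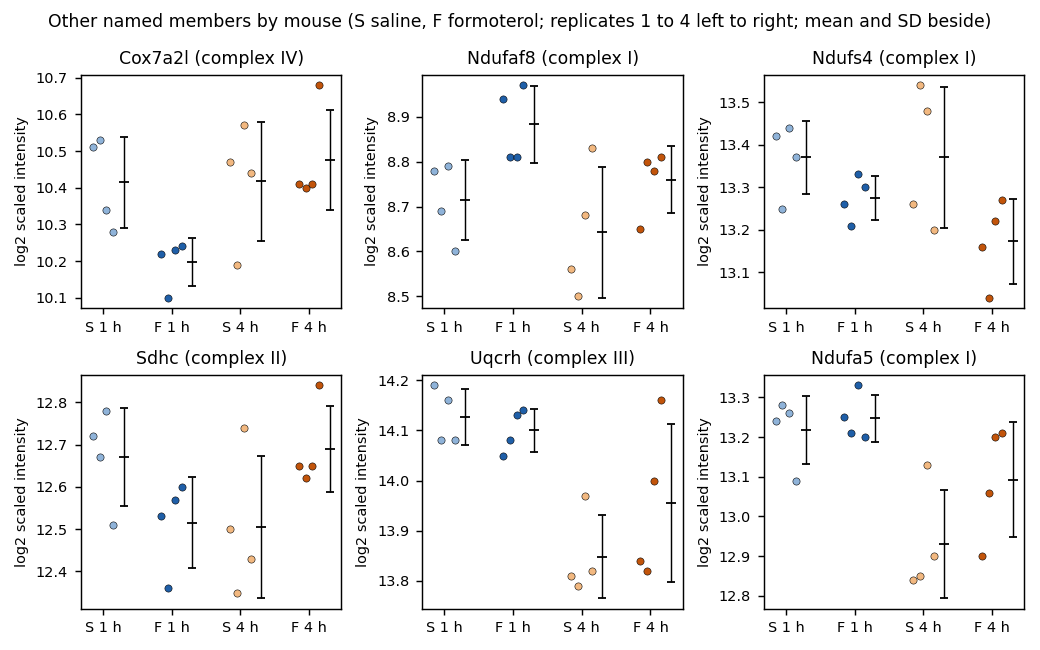
Log2 scaled intensity of Cox7a2l, Ndufaf8, Ndufs4, Sdhc, Uqcrh and Ndufa5 in each mouse by group, with the mean and SD of 4 mice beside the points. The 4 formoterol mice of Cox7a2l at 1 h lie between 10.1 and 10.24, below the 4 saline mice at 10.28 to 10.53.

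Several complex IV subunits exist in a muscle form and a widely used form. The muscle form Cox7a1 read 14.26, 14.33, 14.32 and 14.21 and 14.21, 14.13, 14.29 and 14.32 at 1 h, and 14.06, 13.67, 14.21 and 14.06 and 14.02, 14.06, 14.20 and 14.33 at 4 h, saline first. Saline 4 h replicate 2 was its lowest mouse. The differences were -0.04 (SE 0.10, adjusted p = 0.923) and 0.15 (SE 0.10, adjusted p = 0.311), and the latter was 0.04 (adjusted p = 0.815) without that mouse. Of the widely used forms, Cox6a1 read 10.11, 10.26, 10.36 and 10.33 after saline and 10.54, 10.29, 10.34 and 10.57 after formoterol at 4 h, and Cox8a 10.29, 10.43, 10.57 and 10.33 and 10.44, 10.28, 10.23 and 10.53. Both overlapped between groups. Cox6a1 differed by 0.17 (SE 0.10, adjusted p = 0.263) and, from a second probe, by 0.18 (SE 0.09, adjusted p = 0.166). Cox8a differed by -0.04 (SE 0.11, adjusted p = 0.84). The isoform partners Cox6a2, Cox7a2 and Cox8b were not analysed here, so no ratio of muscle to widely used forms was formed. Cox5b differed by -0.01 and 0.08 and Cox6b1 by 0.11 and 0.16 at 4 h from 2 probes each, with SEs of 0.09 to 0.12 and none called. The small subunits Cox6c and Cox7c differed by -0.01 and -0.06 at 1 h and by -0.04 and -0.02 at 4 h.

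Complex V, the ATP synthase, was represented by 9 genes with a median of -0.079 at 1 h and 0.037 at 4 h. Atp5g2, 1 of the genes of the membrane ring subunit c, was farthest from 0 at 1 h. Saline mice read 11.10, 10.91, 11.09 and 10.91 and formoterol mice 10.75, 10.73, 11.01 and 10.98. The 2 treated mice of slide 2 were below all controls and those of slide 3 were not, and the difference was -0.14 (SE 0.11, adjusted p = 0.637). The paralogue Atp5g1 differed by -0.04 (SE 0.10) at 1 h and 0.15 (SE 0.10) at 4 h, and Atp5c1, the central shaft subunit, by -0.08 (SE 0.10) and 0.15 (SE 0.10). Atp5h, Atp5j2, Atp5l and Atp5mpl, subunits of the stalk and membrane parts, lay between -0.13 and 0.02 at 1 h and between -0.06 and 0.12 at 4 h. At 4 h the gene farthest from 0 was Atp5k, subunit e, which is known for its part in joining ATP synthase into dimers. Its saline mice read 11.66, 13.09, 11.78 and 11.29 and its formoterol mice 11.47, 10.95, 11.57 and 11.03. Saline replicate 2 stood more than 1 log2 unit above the rest, while saline replicate 4 lay inside the treated range. The difference was -0.70 (SE 0.27, adjusted p = 0.0799), and without saline replicate 2 it was -0.32 (adjusted p = 0.24). With slide as a fixed block it was called (adjusted p = 0.0445).

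A small group of genes had wide spreads that rested mostly on 1 mouse. Of the 49, 9 had a standard deviation over the 16 mice above 0.25 (0.28 to 0.51), and the other 40 lay between 0.09 and 0.22. Among all kept probes 12.8% exceeded 0.25, against 18.4% of the 49. Once saline 4 h replicate 2 was left out, 2 of the 49 exceeded it, and the 9 had standard deviations of 0.17 to 0.26, against 0.07 to 0.20 in the other 40. The 9 were Ndufa6, Ndufb2, Ndufb4, Ndufb5 and Ndufb9 of complex I, Uqcrb of complex III, Cox7b of complex IV, and Atp5k and Atp5md of complex V. The 5 complex I genes are accessory subunits, Cox7b is a small nuclear subunit of cytochrome oxidase, and Atp5md, also called DAPIT, is a small membrane subunit of ATP synthase. This group was formed after its values were seen, so its values are a description and were not tested as a group.

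**Figure D3:**
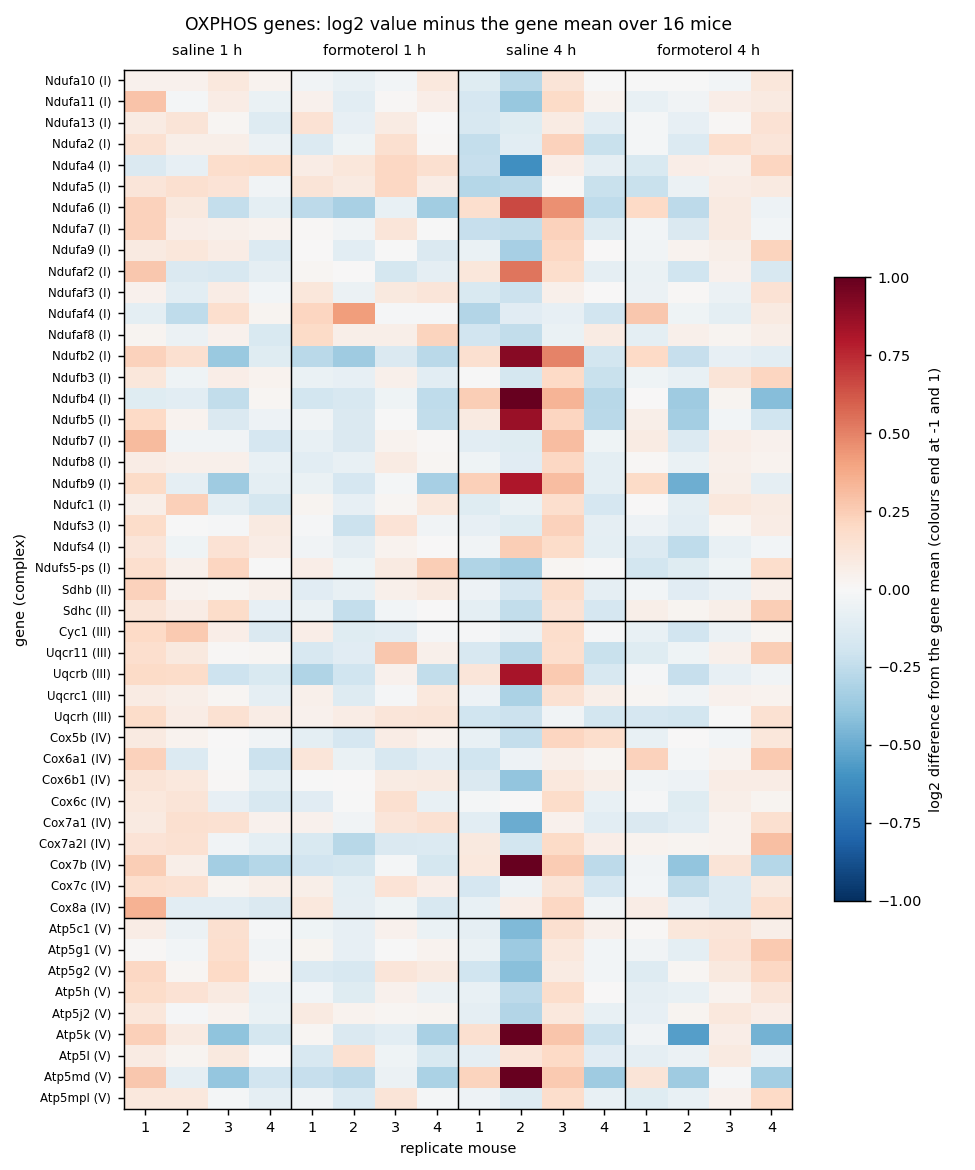
Log2 value of each of the 49 genes minus its mean over 16 mice, with 1 row per gene ordered by complex and 1 column per mouse (red above the mean, blue below). The 9 variable genes are darkest red in saline 4 h replicate 2, where the excess reaches 1.71, and 22 of the other 40 have their lowest value there.

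All 9 were highest in saline 4 h replicate 2, by 0.70 to 1.82 over the mean of the other 15 mice. The other 40 ranged from -0.65 to 0.57 in that mouse, and 22 of them had their lowest value there. Cox7b read 10.11, 11.37, 10.26 and 9.74 in the saline mice and 9.97, 9.61, 10.13 and 9.72 in the formoterol mice at 4 h. Atp5md read 10.72, 12.21, 10.76 and 10.14 and 10.63, 10.14, 10.49 and 10.16. Ndufb2 read 10.05, 10.80, 10.39 and 9.71 and 10.09, 9.66, 9.81 and 9.79. In each of the 3, saline replicate 2 was highest, saline replicate 3 came next and lay above all formoterol mice, and saline replicate 4 lay close to the lower formoterol mice. Over the 16 mice, Pearson's r between pairs of the 9 was 0.80 to 0.98 (median 0.91, 36 pairs). Without saline 4 h replicate 2 it was 0.63 to 0.96 (median 0.83). For pairs of the other 40 the medians were 0.51 and 0.47, and between the 9 and the 40 they were -0.23 and 0.26. These genes share the arrays and their scaling.

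**Figure D4:**
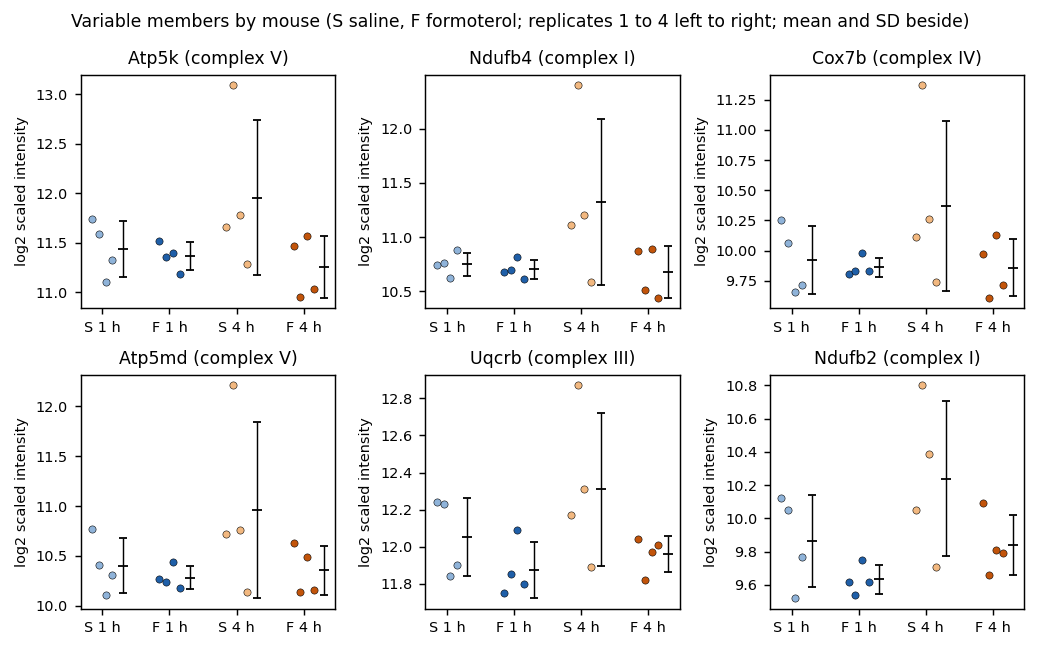
Log2 scaled intensity of 6 of the 9 variable genes in each mouse by group, with the mean and SD of 4 mice beside the points. Saline 4 h replicate 2 is the top point of every panel, for example 13.09 for Atp5k, and saline 4 h replicate 4 lies among or next to the formoterol mice.

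The 4 h differences of the 9 genes were all below 0, from -0.26 to -0.70 with a median of -0.40, and the adjusted p ran from 0.0756 to 0.259. At 1 h they were also all below 0, from -0.05 to -0.25 with a median of -0.12, but this direction held in 1 slide only. Within slide 2 their median was -0.34, all 9 were below 0 and 3 were called lower (Ndufa6, Ndufb2 and Uqcrb), where 8.33% of all kept probes were called. Within slide 3 it was 0.06, with 6 of 9 above 0 and none called. The 4 h values depended on single control mice. Without saline 4 h replicate 2 the 9 differences were -0.13 to -0.32 (median -0.18, adjusted p = 0.189 to 0.648). Without saline 4 h replicate 4, the control mouse with low values, they were -0.43 to -0.92 (median -0.58), and all 9 were called (adjusted p = 0.00752 to 0.0281), together with Ndufs4 and Ndufaf2. With all 16 mice, 3 of the 9 (Atp5k, Ndufb4 and Ndufb9) were called lower after quantile normalization, where 19.4% of all kept probes were called, and Atp5k and Ndufb4 with slide as a fixed block. Without saline 4 h replicate 4, 11 of 49 genes were called lower, against 11.3% of all kept probes. The 3 against 3 mice of slide 1 gave -0.42 to -0.85 and the 1 against 1 of slide 2 gave -0.27 to 0.20, with 6 of 9 above 0. The median of the other 40 genes at 4 h was 0.09 with all mice and 0.02 without saline 4 h replicate 2.

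**Figure D5:**
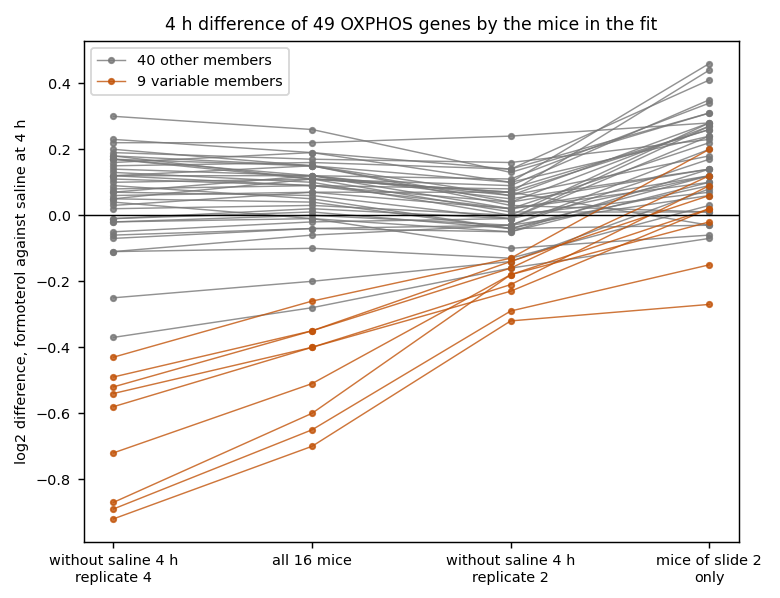
Log2 difference of formoterol against saline at 4 h for each of the 49 genes (1 line per gene) with saline 4 h replicate 4 left out, with all 16 mice, with saline 4 h replicate 2 left out, and in the mice of slide 2 only. The 9 variable genes move from between -0.43 and -0.92 on the left to between -0.27 and 0.20 on the right.

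Markers of other cell types differed between the same groups of mice. Of 6 fibroblast markers listed, 4 were measured (Col1a1, Col1a2, Col3a1 and Dcn). The log2 of their summed scaled intensities was 14.39 to 14.96 in saline and 14.06 to 14.23 in formoterol mice at 4 h. At 1 h it was 14.33 to 14.62 and 13.79 to 14.15. In saline 4 h replicate 2 the median of these markers stood 1.15 above the mean over mice, the highest of all. At 4 h the collagen genes Col1a1, Col1a2 and Col3a1 fell after formoterol, with log2 differences of -0.65, -1.23 and -1.17 (adjusted p = 0.0163, 0.00336 and 0.0209). The groups overlapped for Col3a1 but not for Col1a1 and Col1a2 (19.4% of all kept probes did not overlap). These values include saline 4 h replicate 2, and values without it are not given for these markers. Dcn, which encodes decorin, gave 0.06 at 4 h (adjusted p = 0.525). At 1 h Col1a1 and Dcn fell (adjusted p = 0.00758 and 0.0305), and the median over the 4 was -0.73 at 1 h and -0.91 at 4 h. Of 9 red blood cell markers 3 were measured. The log2 of their summed intensities was 12.58 to 14.28 in saline and 14.61 to 15.39 in formoterol mice at 4 h. At 1 h it was 13.8 to 15.25 and 14.46 to 15.31. At 4 h Hba-a1 and Hbb-b2 were called higher in formoterol than in saline mice (1.82 and 0.61, adjusted p = 0.000647 and 0.0406). Hbb-b1 was not called (1.13, adjusted p = 0.0573). Between 1 h and 4 h, Hba-a1 differed by -1.46 in saline mice and by 0.19 in formoterol mice, neither called. Of 5 endothelial markers 2 were measured. The log2 of their summed intensities was 10.63 to 10.90 in saline and 10.39 to 10.51 in formoterol mice at 4 h. Emcn fell by 0.71 (adjusted p = 0.000884) and Pecam1 gave 0.14 (adjusted p = 0.355). Of 6 macrophage and neutrophil markers 3 were measured, at 9.97 to 10.31 and 10.20 to 10.42. The neutrophil gene S100a9 rose by 0.76 (adjusted p = 0.00774), and Csf1r and Lyz2 were not called. Of 11 markers of slow and oxidative fibres, which hold the most mitochondria, 2 were measured, at 9.52 to 9.83 and 9.52 to 9.68. The calcium pump Atp2a2 was lower in all 4 treated mice than in all controls without passing the threshold (-0.28, adjusted p = 0.0526), and Tpm3 gave 0.12 (adjusted p = 0.391). Groups did not overlap for 19.4% of all kept probes at 4 h. The fast fibre marker Myh1 was likewise lower without overlap at 4 h (-0.27, adjusted p = 0.115), while Casq1 (-0.15) and Actn3 (0.08) overlapped. At 1 h Myh1, Casq1 and Actn3 gave -0.36, -0.30 and -0.04 (adjusted p = 0.117, 0.117 and 0.912), all with overlap. The part of any of these in the differences of the 49 genes was not tested. In whole muscle RNA, fewer cells of a type and less RNA per cell cannot be told apart. Adipocyte and satellite cell markers were not analysed here.

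Promoter sequence was looked up for the genes the 4 h values turn on. RefSeq promoters (GRCm38.p6, 250 bases before to 50 after the gene start) were at hand for 41 of the 49 genes. They were searched on both strands for 4 motifs: that of NRF1 (GCGC, any base, then TGCGC), that of the ETS family to which GABP belongs (CCGGAAG), the cyclic AMP response element (TGACGTCA), and the half-site that estrogen-related receptors bind (AAGGTCA). The NRF1 letters were found in 10 of 41 (24.4%), against 4.8% of all promoters and 12.1% of those of named kept genes. The ETS letters were in 13 (31.7%, against 9.1% and 20.2%), the cyclic AMP element in 3 (7.3%, against 1.9% and 3.8%: Ndufa10, Ndufa11 and Ndufb2) and the half-site in 4 (9.8%, against 4.7% and 3.5%: Atp5k, Atp5l, Ndufb2 and Ndufb4). Of the 9 variable genes, 7 had a promoter, and 3, 2, 1 and 3 of them held these motifs. The promoters of Atp5k and Ndufb4, the genes farthest from 0 at 4 h, and of Ndufb2, the variable gene with a cyclic AMP element, are shown with the motif letters in capitals, from 250 bases before the gene start to 30 after it, on the coding strand.
Atp5k (chr5:108434370-108434649, minus strand): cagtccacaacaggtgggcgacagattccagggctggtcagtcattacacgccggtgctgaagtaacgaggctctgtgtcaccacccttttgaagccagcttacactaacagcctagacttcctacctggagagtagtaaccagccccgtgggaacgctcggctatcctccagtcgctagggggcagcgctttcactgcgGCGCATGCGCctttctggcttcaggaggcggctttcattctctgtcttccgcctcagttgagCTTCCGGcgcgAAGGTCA
Ndufb4 (chr16:37654339-37654618, minus strand): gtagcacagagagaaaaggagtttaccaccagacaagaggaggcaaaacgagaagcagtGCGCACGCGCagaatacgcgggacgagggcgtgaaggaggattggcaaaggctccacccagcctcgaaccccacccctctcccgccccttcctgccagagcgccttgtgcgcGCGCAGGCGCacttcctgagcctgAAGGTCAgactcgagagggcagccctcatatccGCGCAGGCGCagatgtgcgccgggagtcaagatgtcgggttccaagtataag
Ndufb2 (chr6:39592315-39592594, plus strand): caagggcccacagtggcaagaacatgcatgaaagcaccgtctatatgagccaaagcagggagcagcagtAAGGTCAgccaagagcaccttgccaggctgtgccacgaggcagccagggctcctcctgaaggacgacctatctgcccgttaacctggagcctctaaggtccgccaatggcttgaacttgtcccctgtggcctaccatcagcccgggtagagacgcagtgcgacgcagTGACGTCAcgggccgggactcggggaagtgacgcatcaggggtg
In Atp5k the capitals mark 1 NRF1 motif that begins at position -50 from the gene start, and 1 ETS motif and 1 half-site after the start. In Ndufb4 they mark 3 NRF1 motifs at -191, -79 and -22, and 1 half-site at -55. In Ndufb2 they mark 1 half-site at -181 and 1 cyclic AMP element at -14. A match to these letters is a description of the sequence and not a measured binding site.

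Genes of the same pathway outside the rule were read from lists, against the 2.78% of all kept probes called at 1 h and the 15.9% at 4 h. Of 11 measured assembly factors outside the rule, 1 was called, Ttc19, which acts in complex III assembly and was higher at 4 h by 0.34 (SE 0.10, adjusted p = 0.0222). Of 4 measured electron carrier genes, 1 was called, Coq10b, a coenzyme Q binding protein. It rose by 0.63 (SE 0.12, adjusted p = 0.00539) at 1 h and 0.57 (SE 0.12, adjusted p = 0.0033) at 4 h. Its groups did not overlap at either time (8.44% of all kept probes at 1 h and 19.4% at 4 h). Of 7 genes of pyruvate dehydrogenase and the citric acid cycle, 0 were called by limma in any comparison, with medians of 0.02 at 1 h and 0.14 at 4 h. Of 4 inner membrane transport genes, 1 was called, the ADP/ATP carrier Slc25a5, higher at 4 h by 0.38 (SE 0.12, adjusted p = 0.0335). Of 17 listed regulators of mitochondrial genes, 1 had a kept probe named by its gene number, and the other 16, the coactivator PGC-1α among them, were not analysed here. The one read was Ppargc1b, the coactivator PGC-1β, which fell at 4 h, with a difference of -0.65 (SE 0.11, adjusted p = 0.000274) and did not pass at 1 h (0.13). Its 4 formoterol mice at 4 h lay below all 4 saline mice (19.4% of all kept probes did not overlap there).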

How the data were processed

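Muscle RNA of 16 mice was hybridised to Illumina Sentrix mouse BeadChip arrays, 1 per mouse. The authors read them in BeadStudio 1.5.1.3 (submitters' processing notes) and deposited each probe's average bead intensity, not normalized. The deposited detection score runs from 0 to 1. The deposited ratio is the intensity divided by its array's median, which differed from a recomputed value by a relative 0.0016 at most. Background subtraction was not given in the sources used here.

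The 7596 of 46120 probes with a score of 1 on at least 4 arrays were kept. Intensities were scaled to a common median of these probes (523.5), raised to a floor at percentile 1 (257.5, reached by 0 values of the 49 genes) and taken as log2. Group means over all 16 arrays were fitted in limma 3.58.1 (R 4.3.3) by lmFit and eBayes, with degrees of freedom of 12 (residual) and 5.97 (prior), with Benjamini-Hochberg adjustment over all kept probes. Intervals are 95%. The fit was tested on simulated data with independent noise, which held no slide effect and no outlying array. Tables were made in Python 3.11.15 (numpy 2.4.6, pandas 2.3.3, matplotlib 3.10.9).

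Names were read from the gene number inside probe IDs, through RefSeq's gene table, and this reading is an inference. The members, lists and tests were chosen with earlier results of these data known. Named are, per complex, the gene farthest from 0 at each time, the 3 smallest p at each time, genes with 2 probes, complex IV isoforms, and up to 4 called genes per list. Ndufa4, Ndufa5, Ndufaf2, Uqcrh, Sdhb and the variable genes were added after their values were seen. Array number limits the precision, since 4 mice formed each group. Alternatives in normalization, filter, floor, test, weights, slide, mice and probe choice are given in the closing section. Signal over background as a covariate was added after seeing the data.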

Additional observations from a re-analysis of the deposited data

Results flagged for a closer look

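Among the 196 sets of 4 mice (49 genes in 4 groups), 11 held 1 mouse so far from the other 3 that its gap, as a share of the group's range, passed Dixon's 95% limit. Chance alone marks about 1 in 20 such sets. Values are log2 scaled intensities. Saline 1 h replicate 1 was high for 3 genes: Ndufa7 (12.23, next 12.06), Sdhb (13.30, next 13.12) and Cox8a (10.71, next 10.26). Saline 1 h replicate 4 was low for Ndufb8 (13.64, next 13.77). Formoterol 1 h replicate 3 was high for Cox7b (9.98, next 9.83). Saline 4 h replicate 3 was high for Ndufs3 (12.75, next 12.44) and Uqcrh (13.97, next 13.82). Formoterol 4 h replicate 4 was high for Ndufa10 (12.57, next 12.45), Sdhc (12.84, next 12.65) and Cox7a2l (10.68, next 10.41). Formoterol 4 h replicate 1 was low for Ndufaf8 (8.65, next 8.78). None of the 11 came from saline 4 h replicate 2, whose values in the variable genes were high but within this limit.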

How the results depend on the processing

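Other settings changed the number of genes called in some comparisons, always from 0 of 49 with all 16 mice. At 4 h, quantile normalization called 5 (Atp5k, Cox6c, Ndufb4, Ndufb9 and Ndufs4, all lower; 19.4% of all probes were called), normexp with quantile normalization 4 (19.7%), array weights 7 (4 higher, 3 lower; 29.3%), and slide as a fixed block 2 (Atp5k and Ndufb4, lower; 19.7%). Leaving out each mouse in turn gave 0 to 11 at 4 h (11 when saline 4 h replicate 4 was dropped, 1 when it was replicate 3 of that group) and 0 to 1 for formoterol at 4 h against 1 h (1 when it was saline 4 h replicate 2). Array weights called 2 genes in saline at 4 h against 1 h (3.33% of all probes) and 1 in formoterol at 4 h against 1 h (8.85%). The methods' t-test called 0 at both times after adjustment. Within slide 2 alone, 5 genes were called at 1 h (8.33% of all probes) and 1 for formoterol at 4 h against 1 h (2.80%; a single mouse per group at 4 h is assumed to vary like the rest). The median difference over the genes moved at 1 h from -0.061 to -0.157 in slide 2 and 0.036 in slide 3, at 4 h from 0.060 to -0.063 when all probes set the scaling, in the difference between the responses to 0.306 in slide 2, and for formoterol at 4 h against 1 h to 0.123 in slide 2. Signs turned for 24 of the 49 genes at 1 h in slide 3 (31 above 0 and 18 below there) and for 15 at 4 h in slide 2 (42 above, 7 below). Of the genes named per complex or by p, these were Ndufaf4 (-0.106) and Uqcrb (0.076) at 1 h, and Ndufs4 (0.077) and Uqcrb (0.121) at 4 h. The cause of these changes was not tested. All other settings left every count at 0. Same-numbered mice of a time shared a slide, and whether replicate numbers pair them otherwise cannot be told from these values. Deviations of same-numbered mice correlated over 0.1 in 2 of 8 pairs (range -0.25 to 0.30). With the replicate block 0 genes were called in all 5 comparisons, with a median of -0.061 at 1 h and 0.060 at 4 h. Arrays give no counts, so depth was not defined. Signal over background of 2.33 to 3.74 limits dim probes such as that of Ndufaf8.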

Other observations

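Subunits encoded by mitochondrial DNA lie outside the rule, and their probes were looked at after other values had been seen. Detected were 7 of them, ND1, ND4, ND4L and ND6 of complex I, CYTB of complex III, COX2 of complex IV and ATP6 of complex V. By limma, 0 of 7 were called in any of the 5 comparisons. Their median difference was -0.12 at 1 h and -0.12 at 4 h. ND6 read 10.41, 11.80, 10.18 and 9.50 in the saline mice at 4 h and 10.23, 9.79, 9.64 and 9.54 in the formoterol mice. ND4L read 13.09, 13.76, 13.13 and 12.25, and 12.72, 12.24, 13.02 and 12.51. In both genes saline 4 h replicate 2 was the highest of all 16 mice, by 2.01 and 1.15 over the mean of the others, as it was for the 9 variable nuclear genes. That mouse was also highest for COX2 (14.96, next 14.92) and ND1 (15.26, next 15.23), by 0.44 and 0.33 over the mean of the others. ATP6 lay 0.39 above the mean of the others there, and was higher in formoterol 4 h replicate 3. ND4, in contrast, fell by 0.27 there against the others, and CYTB differed by -0.01.

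Genes of the mitochondrial ribosome, which translates those subunits, numbered 32. In formoterol against saline, 0 were called at 1 h and 1 at 4 h (15.9% of all kept probes), Mrps18b (0.24, SE 0.06, adjusted p = 0.0124). Their medians were -0.05 at 1 h and 0.05 at 4 h, and saline 4 h replicate 2 lay at a median of -0.10 over the 32.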
